A study of Mus musculus with 2 samples.

Results

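Arginine is a substrate for which arginase and nitric oxide synthase compete, and 8 genes around that fork are described here in spatially barcoded frozen sections of the mouse calvaria, the vault of the skull. The genes were taken by symbol and are Arg1, Arg2, Nos2, Ass1, Slc7a2, Odc1, Oat and Sat1, 8 of the 31053 gene rows present in both count matrices, and every one of them was found in both. The Col_nHA section came from a calvarial defect that had received collagen/nHA material and was harvested at day 7. The Blank section came from a calvarial defect left without the material, also harvested at day 7. The labels give no strain, age, sex or number of mice, and nothing in them tells whether a section came from 1 animal. Each group held 1 library, so no difference has a replicate check, no p-value is given, and each ratio compares these sections and not the treatments. Intervals in parentheses are exact at 95% and account for counting error alone.

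Arginase splits arginine into ornithine and urea, whereas nitric oxide synthase turns it into nitric oxide and citrulline. Ornithine feeds polyamine synthesis through ornithine decarboxylase and proline synthesis through ornithine aminotransferase, and argininosuccinate synthase starts the return of citrulline to arginine. In mouse macrophages, arginase 1 is a textbook gene of the response to interleukin-4 and interleukin-13, and the inducible synthase Nos2 of the response to interferon-gamma and bacterial products. Healing wounds are sites where both enzymes have long been studied.

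RNA was counted as unique molecular identifiers (UMIs) on an array of barcoded spots, and a spot can hold several cells or parts of cells. Barcodes with more than 4687 UMIs in Col_nHA or more than 3666 in Blank were kept as spots. This gave 2471 spots in Col_nHA and 2249 in Blank of 4992 barcodes each. Kept spots held 40202268 UMIs in Col_nHA, a median of 13815 a spot, and 30705849 UMIs in Blank, a median of 9733. All 4992 barcode sequences were listed in both sections, as positions on the same kind of array. Within 10% of the threshold lay 215 barcodes in Col_nHA and 265 in Blank, and no image or spot position was used. The osteoblast list, chosen to stand for the labelled tissue, took 2.17% of UMIs in Col_nHA and 3.25% in Blank. Nearly all of its counts were Col1a1, with 848098 UMIs in Col_nHA and 967310 in Blank, so its share is no measure of bone alone. The fibroblast list took similar shares, 2.22% in Col_nHA and 3.14% in Blank. Other genes of the osteoblast list did not share a direction, with ratios of 0.404 for Bglap, 1.04 for Sp7 and 1.97 for Ibsp. Other tissues were unequally sampled. The wound epidermis list took 0.109% of UMIs in Col_nHA and 0.0165% in Blank, skeletal muscle 1.23% in Col_nHA and 0.515% in Blank, and choroid plexus 0.0141% in Col_nHA and 1.21% in Blank.

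Levels are given in CPM, the summed UMIs of a gene over all spots, scaled to the same total in each section. In such sums a smaller number of expressing cells and less RNA per cell cannot be told apart. Of the 8 genes, 2 stood at least 2-fold higher in Col_nHA, Arg1 and Nos2, and 0 stood at least 2-fold lower. The share of all 14409 genes with 1 CPM or more in either section that reached 2-fold was 2.83% for higher and 8.02% for lower. The median ratio of the 8 genes was 1.22, against 0.987 over those 14409 genes.

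**Figure D1:**
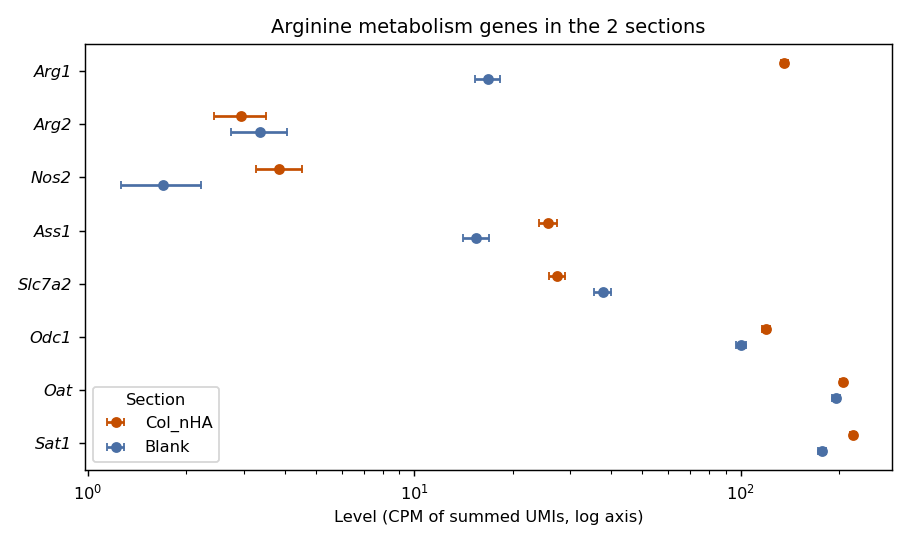
Level of each gene in CPM (log axis) in Col_nHA (orange) and Blank (blue), 1 library each, as scaled sums over all spots, with bars for the exact 95% Poisson interval of the count. Arg1 shows the widest gap, at 136 CPM in Col_nHA against 16.8 CPM in Blank, while Oat lies at 206 CPM in Col_nHA against 196 CPM in Blank.

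Arg1, the gene of the cytosolic arginase (ENSMUSG00000019987, chr10:24915207-24927470 on GRCm38.p6), was the member that differed most. It had 5471 UMIs in Col_nHA and 516 in Blank. These counts are 136 CPM (133 to 140) in Col_nHA against 16.8 CPM (15.4 to 18.3) in Blank, a ratio of 8.10 (7.40 to 8.88). Arg1 ranked 13 from the highest ratio among the 9855 genes that reached 10 CPM in either section, of which 1.83% were 2-fold or more higher and 3.40% 2-fold or more lower in Col_nHA.

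The extra Arg1 counts came both from more spots and from higher counts per spot. At least 1 Arg1 UMI was found in 1414 spots of Col_nHA and 308 of Blank. At least 5 UMIs were found in 332 spots of Col_nHA and 16 of Blank, and at least 10 in 130 of Col_nHA and 3 of Blank. The highest spot held 59 UMIs in Col_nHA and 12 in Blank. The top 5% of spots held 39.0% of the Arg1 UMIs in Col_nHA and 62.2% in Blank. Sparse genes reach high values on this measure, as Nos2 did at 93.55% in Col_nHA and 100% in Blank, so it does not measure unevenness alone.

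With each spot thinned to 2000 UMIs, 21.3% (19.7 to 23.0) of Col_nHA spots and 2.71% (2.08 to 3.47) of Blank spots held an Arg1 UMI. Without thinning the shares were 57.2% in Col_nHA and 13.7% in Blank. Barcodes below the threshold, with medians of 1760 UMIs in Col_nHA and 1248 in Blank, were set beside the spots. Without an image, nothing shows whether they lay off the tissue. At 500 UMIs a barcode, Arg1 was present in 6.68% of Col_nHA spots beside 5.14% of Col_nHA barcodes below the threshold. In Blank those shares were 0.534% of spots and 0.508% of barcodes below the threshold. The share in spots thus lay close to that of the barcodes below the threshold in its own section, which itself differed between the sections. As summed levels, Arg1 had 137 CPM below the threshold and 136 CPM in spots of Col_nHA, and 13.9 and 16.8 CPM in Blank. These barcodes are therefore no proven background.

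Arg2, the gene of the mitochondrial arginase (ENSMUSG00000021125, chr12:79130788-79156301), had 118 UMIs in Col_nHA and 103 in Blank. At 2.94 CPM in Col_nHA against 3.35 CPM in Blank, its ratio was 0.875 (0.666 to 1.15), an interval that holds 1. The 2 arginase genes therefore differed in their ratios, 8.10 for Arg1 and 0.875 for Arg2, with intervals that do not overlap. The quotient of Arg1 to Arg2 UMIs was 46.4 (38.6 to 56.1) in Col_nHA and 5.01 (4.05 to 6.25) in Blank.

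Nos2, the gene of the inducible nitric oxide synthase (ENSMUSG00000020826, chr11:78920787-78960226), was sparse, with 155 UMIs in Col_nHA and 52 in Blank. Its level was 3.86 CPM (3.27 to 4.51) in Col_nHA against 1.69 CPM (1.27 to 2.22) in Blank, a ratio of 2.28 (1.65 to 3.18). Both genes of the fork were thus more abundant in Col_nHA, Arg1 by the larger factor. The quotient of Arg1 to Nos2 UMIs was 35.3 (30.1 to 41.7) in Col_nHA and 9.92 (7.45 to 13.5) in Blank, 3.56 times as high in Col_nHA. It is a quotient of captured UMIs, to be read between sections and not as the relative amount of the enzymes.

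No spot held more than 3 Nos2 UMIs in Col_nHA or 2 in Blank. Thinned to 2000 UMIs, 1.05% (0.689 to 1.54) of Col_nHA spots and 0.178% (0.0485 to 0.455) of Blank spots held a Nos2 UMI. At 500 UMIs the share was 0.324% in Col_nHA spots beside 0.343% in Col_nHA barcodes below the threshold. In Blank it was 0.0889% in spots beside 0.196% in barcodes below the threshold. These shares rest on 8 spots and 8 barcodes below the threshold in Col_nHA, and on 2 and 5 in Blank. Such counts are too few to compare the presence of a Nos2 UMI in spots with that below the threshold. The sums of Nos2 per section or region are the values to read.

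Ass1, which encodes argininosuccinate synthase (ENSMUSG00000076441, chr2:31470270-31520670), had 1032 UMIs in Col_nHA and 474 in Blank. Its level was 25.7 CPM (24.1 to 27.3) in Col_nHA against 15.4 CPM (14.1 to 16.9) in Blank, a ratio of 1.66 (1.49 to 1.86). Beside that, 6.97% of the 14409 genes were at least 1.5-fold higher in Col_nHA. Ass1 UMIs were present in 4.45% (3.67 to 5.34) of Col_nHA spots and 2.67% (2.04 to 3.42) of Blank spots thinned to 2000 UMIs, and in 27.1% of Col_nHA and 15.1% of Blank spots without thinning.

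Slc7a2, which encodes the cationic amino acid transporter CAT2 that brings arginine into cells (ENSMUSG00000031596, chr8:40862341-40922070), was lower in Col_nHA. It had 1100 UMIs in Col_nHA and 1160 in Blank, or 27.4 CPM (25.8 to 29.0) in Col_nHA and 37.8 CPM (35.6 to 40.0) in Blank. The ratio was 0.724 (0.666 to 0.787). Thinned to 2000 UMIs, 4.82% (4.01 to 5.74) of Col_nHA spots and 8.23% (7.12 to 9.44) of Blank spots held a Slc7a2 UMI. The transporter and the Arg1 enzyme it can supply thus lay on opposite sides of 1.

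The genes that act on ornithine and polyamines were abundant and differed little. Odc1, for ornithine decarboxylase, the first enzyme of polyamine synthesis (ENSMUSG00000011179, chr12:17544808-17551502), had 4797 UMIs in Col_nHA against 3072 in Blank, a ratio of CPM of 1.19 (1.14 to 1.25). Oat, for the mitochondrial ornithine aminotransferase on the way to proline (ENSMUSG00000030934, chr7:132557475-132576398), stood at 206 CPM in Col_nHA against 196 CPM in Blank, a ratio of 1.05 (1.02 to 1.09). Sat1, for the acetyltransferase that starts polyamine breakdown and export (ENSMUSG00000025283, chrX:155213126-155216449), stood at 221 CPM in Col_nHA against 177 CPM in Blank, a ratio of 1.25 (1.203 to 1.288). These 3 intervals exclude 1, but they cover counting error alone. The quotient of Odc1 to Sat1 UMIs was 0.541 (0.522 to 0.561) in Col_nHA and 0.565 (0.540 to 0.591) in Blank. Odc1 and Sat1 thus kept nearly the same proportion when summed over each section.

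RefSeq promoter sequences on GRCm38.p6, from 250 bases before to 50 after the annotated start, were given for 4 of the 8 genes, Ass1, Odc1, Oat and Sat1. Those of Ass1 and Odc1 are shown because their levels went with that of Arg1 across regions, as described further on. The motifs searched on both strands were the TATA box core TATAAA, the cyclic AMP response element TGACGTCA, the E-box CACGTG, the GC box GGGCGG, the CCAAT box, and TTCNNNGAA, the interferon-gamma activated site. The Odc1 window is set on an annotated start inside the gene span given above, and that of Ass1 on the first base of its span. Capitals mark the matches, which do not overlap each other in these windows.
Ass1 promoter, chr2:31470020-31470319, plus strand: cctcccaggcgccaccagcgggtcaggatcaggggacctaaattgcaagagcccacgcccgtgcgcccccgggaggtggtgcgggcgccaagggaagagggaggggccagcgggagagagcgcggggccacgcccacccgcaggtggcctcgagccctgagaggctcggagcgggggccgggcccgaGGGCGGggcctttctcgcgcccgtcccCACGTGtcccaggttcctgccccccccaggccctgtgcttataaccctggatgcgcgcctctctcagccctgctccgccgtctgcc
Odc1 promoter, chr12:17544623-17544922, plus strand: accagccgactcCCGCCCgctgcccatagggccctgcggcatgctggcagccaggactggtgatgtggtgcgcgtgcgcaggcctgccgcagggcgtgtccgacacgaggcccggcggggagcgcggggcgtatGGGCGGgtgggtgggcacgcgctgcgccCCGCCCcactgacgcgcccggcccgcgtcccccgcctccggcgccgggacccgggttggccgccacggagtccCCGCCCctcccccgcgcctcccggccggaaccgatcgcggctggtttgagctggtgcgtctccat
The Ass1 window held 1 CACGTG, the E-box bound by Myc and Max, with its first base at position -36 from the start, a motif found in 7.15% of 32851 promoters of the same length. It also held 1 GGGCGG, the GC box, which 35.7% of promoters hold. The Odc1 window held 4 GC boxes, counting both strands, and no CACGTG, and neither window held TATAAA (13.6% of promoters), TGACGTCA (1.79%), CCAAT (37.4%) or TTCNNNGAA (8.30%). A match describes letters and is no measure of binding in these sections.

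The other arginine genes, in 5 lists, moved less than Arg1. In the list of other nitric oxide synthases and their cofactor, 9 of 10 genes had 10 CPM or more, and 0 of them differed by 1.5-fold, beside 5.13% of the 9855 genes at that level that were at least 1.5-fold higher and 7.07% at least 1.5-fold lower. With so few genes in a list, a count of 0 is near that background. Ddah1, which breaks down a natural inhibitor of nitric oxide synthase, had 73.1 CPM in Col_nHA against 52.5 CPM in Blank, a ratio of 1.39 (1.31 to 1.48). Its relative Ddah2 had 61.8 CPM in Col_nHA, against 76.6 CPM in Blank, a ratio of 0.807 (0.763 to 0.855). Nos3, for the endothelial synthase and named after its values were seen, had 16.4 CPM in Col_nHA against 11.8 CPM in Blank, a ratio of 1.39 (1.22 to 1.59). Nos1, for the neuronal synthase, below 10 CPM and also named after its values were seen, had 108 UMIs in Col_nHA and 45 in Blank, a ratio of 1.83 (1.28 to 2.66). At the 1 CPM minimum used for the 8 genes, it was the 1 gene of this list at least 1.5-fold higher, beside 6.97% of 14409 genes, and 0 were at least 1.5-fold lower, beside 14.1%.

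Of the 7 transport genes, 5 passed 10 CPM and 0 differed by 1.5-fold, against the same 5.13% higher and 7.07% lower. Slc3a2, the heavy chain that carries several amino acid transporters, had 124 CPM in Col_nHA against 114 CPM in Blank, and its partner Slc7a6 had 32.8 CPM in Col_nHA and 27.8 CPM in Blank. In the urea cycle and creatine list, 4 of 8 passed and 0 differed by 1.5-fold, against those same shares. Asl, the enzyme that follows argininosuccinate synthase, had 26.0 CPM in Col_nHA against 24.7 CPM in Blank, a ratio of 1.05 (0.959 to 1.16), and the creatine enzyme gene Gamt had 31.6 CPM in Col_nHA and 33.5 CPM in Blank. The liver urea cycle genes were near or at 0. Otc had 0 UMIs in both sections, and Cps1 had 4 in Col_nHA and 2 in Blank, both named after their values were seen.

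In the polyamine list, 11 of 13 genes passed 10 CPM and 1 was at least 1.5-fold higher, against 5.13% of the 9855 genes; 0 were at least 1.5-fold lower, against 7.07%. That gene was Srm, spermidine synthase, with 124 CPM in Col_nHA against 80.8 CPM in Blank, a ratio of 1.54 (1.46 to 1.61). At the 1 CPM minimum, Amd1, for the decarboxylase that supplies aminopropyl groups, joined it, with 339 UMIs in Col_nHA and 147 in Blank, a ratio of 1.76 (1.45 to 2.15). Eif5a, the translation factor that carries the spermidine-derived hypusine, had 636 CPM in Col_nHA and 498 CPM in Blank, and the antizyme gene Oaz1, whose product turns ornithine decarboxylase over, had 599 CPM in Col_nHA and 587 CPM in Blank. In the proline and ornithine list, 6 of 7 passed and 0 differed by 1.5-fold, against those shares. Aldh18a1, for the enzyme that makes the proline precursor from glutamate, had 44.5 CPM in Col_nHA and 41.0 CPM in Blank. Pycr1, for the last step to proline, had 35.8 CPM in Col_nHA and 48.3 CPM in Blank. The median ratios at 10 CPM were 1.2 for the synthase list, 1.09 for transport, 1.03 for the urea cycle, 1.21 for polyamines and 1.01 for proline, against 1.01 over all 9855 genes.

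Markers of several cell types also differed between the sections. All 12 genes of the macrophage and monocyte list were detected in both sections, 4 of them at least 1.5-fold higher in Col_nHA, beside 5.13% of the 9855 genes, and 0 at least 1.5-fold lower, beside 7.07%. Their median ratio was 1.13, Mrc1 and Ccr2 had ratios of 0.801 and 0.896, and the list took 0.871% of UMIs in Col_nHA and 0.647% in Blank. Most of its counts were Lyz2, with 245145 UMIs in Col_nHA and 128004 in Blank, so the share of the list follows mainly that gene. All 10 genes of the neutrophil list were detected, without a common direction, and the list took 0.0328% of UMIs in Col_nHA and 0.0242% in Blank. Most of its counts were S100a8, with 6593 UMIs in Col_nHA and 2955 in Blank, and S100a9, with 4886 in Col_nHA and 3143 in Blank, genes that wounded epidermis also expresses. Retnlg and Ngp had ratios of 0.216 (0.143 to 0.319) and 0.488 (0.389 to 0.611), and Camp and Ltf also lay below 1, at 0.725 and 0.691. Cxcr2 and Csf3r lay above 1, at 1.85 (1.382 to 2.505) and 1.29 (1.162 to 1.425). Mmp8 had a ratio of 1.43 (0.899 to 2.30), an interval that holds 1, and Ly6g had 9 UMIs in Col_nHA against 3 in Blank. All 7 genes of the wound epidermis list were detected and at least 2-fold higher in Col_nHA, beside 1.83% of the 9855 genes. The epidermis list went the other way, with 0.0871% of UMIs in Col_nHA against 0.217% in Blank, and 5 of its 7 genes were at least 2-fold lower, beside 3.40%. One of them, the keratin gene Krt10, had 20.8 CPM in Col_nHA against 407 CPM in Blank. The part of these cell types in the Arg1 difference was not tested. Within the 25% of spots with the highest macrophage list share in each section, Arg1 stood at 156 CPM in Col_nHA against 29.1 CPM in Blank, a ratio of 5.36. Those spots were not matched in list share, with a mean of 1.69% in Col_nHA and 1.06% in Blank. Without spots over 0.5% of UMIs in the wound epidermis list, the Arg1 ratio was 7.59, and without spots over 2% in the lists of other tissues it was 7.42.

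Spots of both sections were grouped into 16 regions by Leiden clustering at a resolution of 0.6, on variable genes from which the 8 genes and the pathway lists had been removed. Regions carry a number and their leading genes by fold, and are no cell types. With at least 50 spots of a section required, 19 pools of spots remained, 10 in Col_nHA and 9 in Blank, and 4 regions had such pools in both sections. Most regions belonged mainly to 1 library, so region and section cannot be told apart for those.

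**Figure D2:**
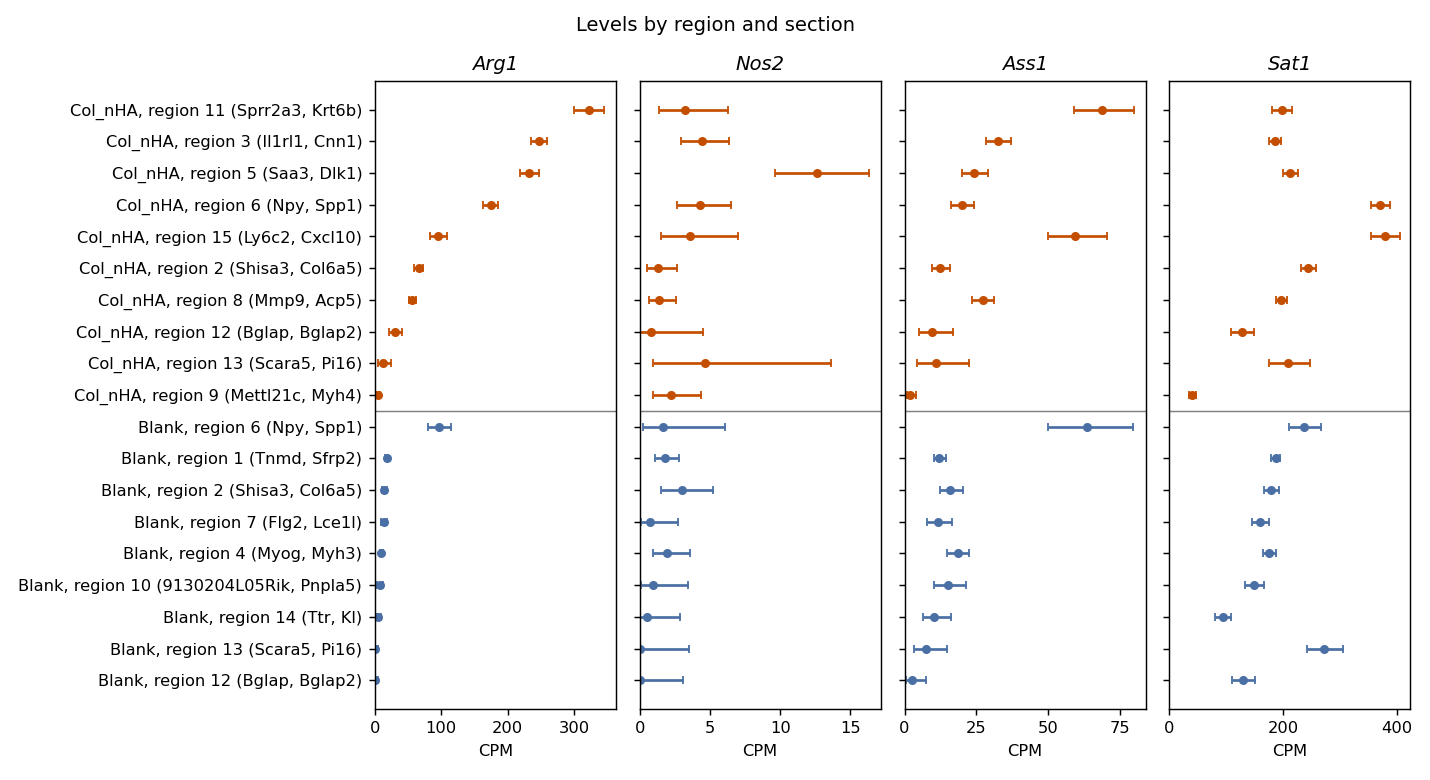
Level of Arg1, Nos2, Ass1 and Sat1 in CPM in each region pool of at least 50 spots, Col_nHA pools (orange) above Blank pools (blue), ordered by Arg1 within a section, with exact 95% Poisson intervals of the counts. Arg1 falls from 323 CPM in region 11 to 5.25 CPM in region 9 of Col_nHA, Nos2 peaks in region 5 of Col_nHA at 12.6 CPM, and Sat1 peaks in regions 15 and 6 of Col_nHA at 379 and 371 CPM.

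Arg1 ranged from 5.25 to 323 CPM over the 10 Col_nHA pools and from 0.844 to 96.1 CPM over the 9 Blank pools. It was highest in region 11 of Col_nHA, led by Sprr2a3, Krt6b and Klk13, genes of stressed and wounded epidermis, at 323 CPM (301 to 346). Region 3 of Col_nHA, led by Il1rl1, Cnn1 and Cxcl5, followed at 247 CPM (236 to 260). Region 5 of Col_nHA, led by Saa3, Dlk1 and Prg4, had 232 CPM (219 to 247), which overlaps region 3. Regions 11, 3 and 5 together were thus the Arg1-rich pools, and 29.7% of the Arg1 UMIs of Col_nHA lay in region 3, which had 16.4% of its UMIs.

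Region 6, led by Npy, Spp1 and F7, was next with 174 CPM (163 to 186) in Col_nHA, and its Blank pool was the highest of Blank with 96.1 CPM (79.4 to 115). The Blank pool of region 6 had 22.3% of the Arg1 UMIs of Blank in 3.90% of its UMIs. Region 15 of Col_nHA, led by Ly6c2, Cxcl10 and Ms4a4c, had 94.6 CPM (82.3 to 108), which overlaps Blank region 6. Regions 2 and 8 of Col_nHA, led by Shisa3, Col6a5 and Penk and by the osteoclast genes Mmp9 and Acp5, had 66.0 and 56.4 CPM with overlapping intervals.

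The other 11 pools had less Arg1. Region 12, led by the osteocalcin genes Bglap and Bglap2 and by Ifitm5, had 29.7 CPM in Col_nHA and 0.844 CPM, from 1 UMI, in Blank. Region 1 of Blank, led by Tnmd, Sfrp2 and Capn6, had 17.6 CPM (15.1 to 20.3), and as the largest pool it held 35.9% of the Arg1 UMIs of Blank. Blank regions 2 and 7, Col_nHA region 13 and Blank region 4 followed between 13.7 and 9.53 CPM, each overlapping its neighbour. Blank region 10, led by 9130204L05Rik, Pnpla5 and Retn, had 7.12 CPM, Blank region 14, led by the choroid plexus genes Ttr and Kl, had 5.21 CPM, and Blank region 13 had 0.947 CPM from 1 UMI. Region 9 of Col_nHA, led by the muscle genes Mettl21c and Myh4, had 5.25 CPM (3.16 to 8.20).

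The macrophage list, over each section mostly Lyz2, did not order the pools as Arg1 did. Its share of UMIs was 0.436% in region 11, 0.452% in region 3 and 0.930% in region 5 of Col_nHA, and 1.81% in region 6 and 1.84% in region 15 of Col_nHA. The neutrophil list, over each section mostly S100a8 and S100a9, took 0.153% in region 11, 0.0303% in region 3 and 0.0385% in region 5, and the wound epidermis list 1.53% in region 11. The part of these cells in the Arg1 level of a region was not tested.

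Nos2 had its highest level in region 5 of Col_nHA, with 12.6 CPM (9.60 to 16.3) from 58 UMIs. That region held 37.4% of the Nos2 UMIs of Col_nHA in 11.4% of its UMIs. Regions 3, 6, 15 and 11 of Col_nHA had 4.41, 4.28, 3.55 and 3.21 CPM, with overlapping intervals that lie below that of region 5. Region 13 of Col_nHA, at 4.67 CPM from 3 UMIs, could not be parted from region 5. The region with the most Nos2 was therefore also one of the 3 richest in Arg1, while region 11, the richest in Arg1, had 8 Nos2 UMIs. That order depends on the resolution, since at 1.0 the highest Arg1 level of Col_nHA, 424 CPM, and its highest Nos2 level, 19.8 CPM, lay in the same region, led by Saa3, Mt2 and Prg4. In Blank no pool exceeded 2.99 CPM (1.54 to 5.22), in region 2 from 12 UMIs, and regions 12 and 13 of Blank had 0 UMIs, which allows up to 2.53 and 2.84 CPM at a floor of 3 counts and up to 3.11 and 3.49 CPM by the exact interval.

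At the coarser resolution of 0.3, the region led by Saa3, Dlk1 and Prg4 held enough spots of both sections for a comparison. Nos2 stood there at 12.7 CPM in Col_nHA from 56 UMIs, against 13.7 CPM in Blank from 9 UMIs, a ratio of 0.926 (0.455 to 2.13). Arg1 stood at 235 CPM in Col_nHA against 85.3 CPM in Blank, a ratio of 2.76 (2.11 to 3.67). At that resolution the highest Nos2 level of Blank thus lay in the same region as that of Col_nHA, on few counts, while Arg1 still differed there.

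Ass1 was high in 3 pools whose intervals overlap, region 11 of Col_nHA at 68.9 CPM (59.0 to 80.0), region 6 of Blank at 63.5 CPM (50.04 to 79.5) and region 15 of Col_nHA at 59.5 CPM (49.9 to 70.5). Region 3 of Col_nHA came next with 32.6 CPM (28.4 to 37.2), apart from those 3. The lowest were region 12 of Blank, at 2.53 CPM from 3 UMIs, and region 9 of Col_nHA, at 1.94 CPM from 7 UMIs.

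Slc7a2 had another order, with 57.0 CPM (50.8 to 63.7) in Col_nHA and 61.0 CPM (53.6 to 69.1) in Blank in region 2, led by Shisa3, Col6a5 and Penk. Blank regions 10 and 13, led by 9130204L05Rik and Pnpla5 and by Scara5 and Pi16, overlapped these at 57.4 and 53.0 CPM. The lowest Slc7a2 level, 15.2 CPM (10.8 to 20.9), was in region 11 of Col_nHA, where Arg1 was highest. Its interval overlapped those of regions 3, 6, 8, 9, 12 and 13 of Col_nHA and of regions 12 and 14 of Blank.

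Odc1 was highest in region 3 of Col_nHA at 174 CPM (164 to 184), apart from the next pool, region 8 of Col_nHA at 131 CPM (123 to 140). Its lowest pool was region 9 of Col_nHA at 51.4 CPM. Oat spanned the least, from 138 to 283 CPM over Col_nHA pools and 150 to 259 CPM over Blank pools, and was highest in region 2 of both sections. Sat1 was highest in regions 15 and 6 of Col_nHA, at 379 CPM (354 to 405) and 371 CPM (355 to 388), the 2 pools with the largest macrophage list shares, and lowest in region 9 of Col_nHA at 40.4 CPM. Arg2 was sparse, with its highest level, 17.6 CPM (10.9 to 26.8), in region 6 of Blank from 21 of the 103 UMIs of that section. That interval overlapped those of Blank region 10, at 13.8 CPM (9.22 to 19.8) from 29 UMIs, and Blank region 7, at 7.19 CPM (4.33 to 11.2).

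Ratios within a region compare spots that clustered together, for the 4 regions shared by the sections, although their makeup could still differ. In region 2, Arg1 stood at 66.0 CPM in Col_nHA against 13.7 CPM in Blank, a ratio of 4.83 (3.63 to 6.53), and it was the only member at least 2-fold higher there among the 6 with 10 CPM or more, where 1.43% of all genes were 2-fold or more higher and 1.44% 2-fold or more lower. Sat1 had a ratio of 1.37 (1.246 to 1.497). Slc7a2, at 0.935 (0.788 to 1.11), and Ass1, at 0.776 (0.543 to 1.11), had intervals that hold 1. Nos2 rested on 7 UMIs in Col_nHA and 12 in Blank, a ratio of 0.433 (0.144 to 1.19). The pools of region 2 differed in makeup, with the macrophage list at 1.103% of UMIs in Col_nHA against 0.620% in Blank. The osteoblast list, over each section mostly Col1a1, took 1.81% in Col_nHA against 2.85% in Blank. At resolution 1.0, 64.4% of its Col_nHA spots fell in a region of their own and 69.0% of its Blank spots in another. A further region took 33.6% of the Col_nHA spots and 19.6% of the Blank spots, and there Arg1 had 55 UMIs in Col_nHA and 6 in Blank, a ratio of 4.56 (1.97 to 12.97). The part of the unequal makeup in the ratios of region 2 was not tested.

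In region 6, Arg1 had a ratio of 1.81 (1.49 to 2.22) and Sat1 of 1.56 (1.38 to 1.78). Ass1 stood at 20.02 CPM in Col_nHA against 63.5 CPM in Blank, a ratio of 0.315 (0.232 to 0.430), and Arg2 at 2.14 CPM in Col_nHA against 17.6 CPM in Blank, a ratio of 0.122 (0.0530 to 0.264). There, 4.01% of genes were at least 2-fold lower and 1.82% at least 2-fold higher in Col_nHA. The 2 pools of region 6 differed in makeup: the neutrophil list took 0.0235% of UMIs in Col_nHA and 0.122% in Blank, and Il1b, for interleukin-1 beta, reached 20.8 CPM in Col_nHA and 155 CPM in Blank. The macrophage list took 1.81% in Col_nHA and 1.19% in Blank. At resolution 1.0, 96.3% of the Col_nHA spots and 15.9% of the Blank spots of region 6 fell in 1 region, and 84.1% of its Blank spots fell in another, led by Acod1, Cxcl3 and Cxcl2. The part of this makeup in the Ass1 and Arg2 ratios was not tested.

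In region 12, Arg1 had 37 UMIs in Col_nHA and 1 in Blank, a ratio of 35.2 (5.94 to 1428), and Ass1 had 12 UMIs in Col_nHA and 3 in Blank, a ratio of 3.81 (1.03 to 21.0). There 5.51% of genes reached 2-fold higher in Col_nHA and 3.49% reached 2-fold lower. In region 13, led by Scara5, Pi16 and C3, Arg1 had 8 UMIs in Col_nHA and 1 in Blank, a ratio of 13.1 (1.76 to 583), where 5.19% of genes were at least 2-fold higher and 5.48% at least 2-fold lower. Slc7a2 had 17 UMIs in Col_nHA and 56 in Blank, a ratio of 0.499 (0.272 to 0.871), and Sat1 a ratio of 0.767 (0.620 to 0.945). Arg1 was therefore above 1 in these 4 shared regions at resolution 0.6, over a range of 1.81 to 35.2, with intervals that exclude 1, whereas Sat1 lay above 1 in regions 2 and 6 and below 1 in region 13. At resolution 0.3 the region led by Tnmd, Sfrp2 and Capn6 also held enough spots of both sections, and Arg1 had 20 UMIs in Col_nHA and 185 in Blank there, a ratio of 1.45 (0.864 to 2.30), an interval that holds 1. At resolution 1.0 the region that held all spots of region 13 had 8 Arg1 UMIs in each section, a ratio of 2.07 (0.677 to 6.33), so the value there rests on few Blank counts.

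**Figure D3:**
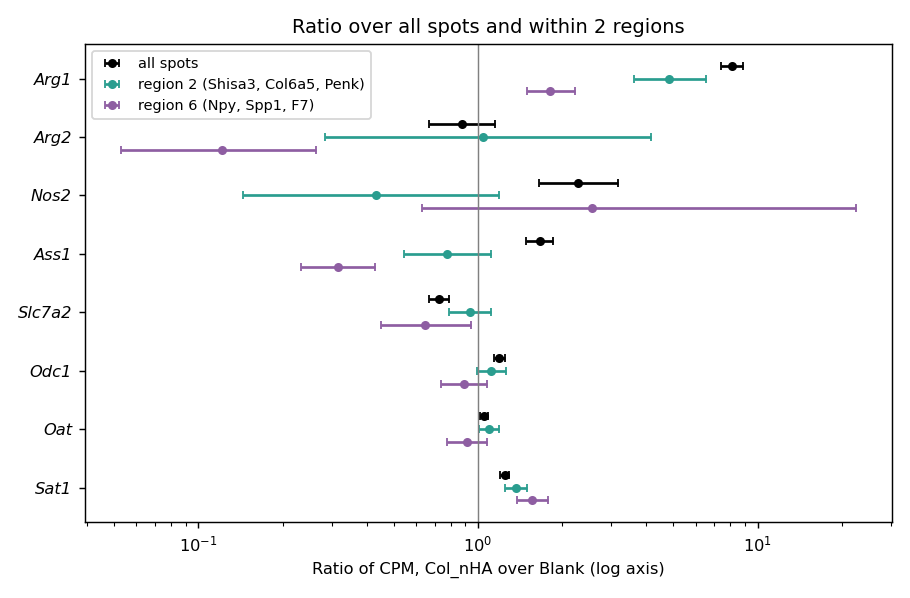
Ratio of CPM, Col_nHA over Blank (log axis), of each gene over all spots (black) and within region 2 (green) and region 6 (purple), with exact 95% conditional binomial intervals and a line at 1. Arg1 lies at 8.10, 4.83 and 1.81, and Ass1 lies above 1 over all spots, at 1.66, but at 0.315 in region 6.

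Spots were also ranked by the share of their UMIs in a gene list, and the 25% with the highest share were set beside the 25% with the lowest, 617 spots each in Col_nHA and 562 each in Blank. Spots of 1 section are not replicates, so these values are descriptions. By the neutrophil list, Arg1 stood at 281 CPM in the highest spots of Col_nHA and 55.7 CPM in the lowest, a quotient of 5.04 (4.59 to 5.55). In Blank it stood at 41.1 and 8.20 CPM, a quotient of 5.01 (3.70 to 6.91). The quotient for the hypoxia and glycolysis list was 4.41 (4.03 to 4.82) in Col_nHA and 3.58 (2.65 to 4.88) in Blank. Arg1 was thus higher in the spots with the highest shares of these lists, in Col_nHA and in Blank. The neutrophil list counts are mainly S100a8 and S100a9, and its share is no measure of neutrophils alone. Counts of the hypoxia and glycolysis list are mainly the glycolysis genes Aldoa and Ldha. Aldoa had 57411 UMIs in Col_nHA and 22748 in Blank, and Ldha 35263 in Col_nHA and 16239 in Blank. The share of that list is therefore no measure of hypoxia alone.

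For the macrophage list, Arg1 stood at 156 CPM in the highest and 76.8 CPM in the lowest 25% of Col_nHA spots, a quotient of 2.03 (1.87 to 2.20). In Blank it stood at 29.1 and 4.75 CPM, a quotient of 6.12 (4.28 to 9.01). Arg1 thus stood at 76.8 CPM in the lowest 25% of Col_nHA spots and at 29.1 CPM in the highest 25% of Blank spots. Spots were ranked within each section, by a share that over each section is mostly Lyz2. The part of macrophages in these Arg1 levels was not tested. Sat1 followed the macrophage list in both sections, with quotients of 2.92 (2.74 to 3.11) in Col_nHA and 1.67 (1.54 to 1.80) in Blank. Odc1 went the other way, at 0.825 (0.762 to 0.894) in Col_nHA and 0.727 (0.661 to 0.800) in Blank.

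The lists of macrophage states were built without any of the 8 genes. The alternative state list holds Chil3, Retnla, Mrc1, Cd163, Clec10a, Pdcd1lg2, Il4ra and Mgl2, and its members did not share a direction. Of its 6 genes with 10 CPM or more, 1 was at least 2-fold higher in Col_nHA, beside 1.83% of all 9855 genes, and 3 at least 2-fold lower, beside 3.40%. By this list, Arg1 had a quotient of 3.48 (3.20 to 3.80) in Col_nHA and 1.14 (0.835 to 1.55) in Blank, and Nos2 of 3.51 (2.09 to 6.14) in Col_nHA and 0.863 (0.288 to 2.38) in Blank. In Col_nHA the genes of both branches were thus higher in the spots with the highest share of this list. Most of its counts there were Mrc1 and Il4ra, at 119 and 104 CPM, beside 46.4 CPM for Chil3, 13.7 CPM for Clec10a and 5.90 CPM for Retnla. Its share is therefore no measure of alternative macrophages alone. By the inflammatory state list, which holds Il1b, Tnf, Ptgs2 and Cxcl10 among others, Ass1 had quotients of 3.06 (2.499 to 3.776) in Col_nHA and 2.38 (1.76 to 3.28) in Blank. Arg1 had quotients of 2.69 (2.46 to 2.93) in Col_nHA and 3.21 (2.35 to 4.45) in Blank. Nos2 had quotients of 1.37 (0.861 to 2.20) in Col_nHA and 2.57 (0.793 to 10.8) in Blank, intervals that hold 1.

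**Figure D4:**
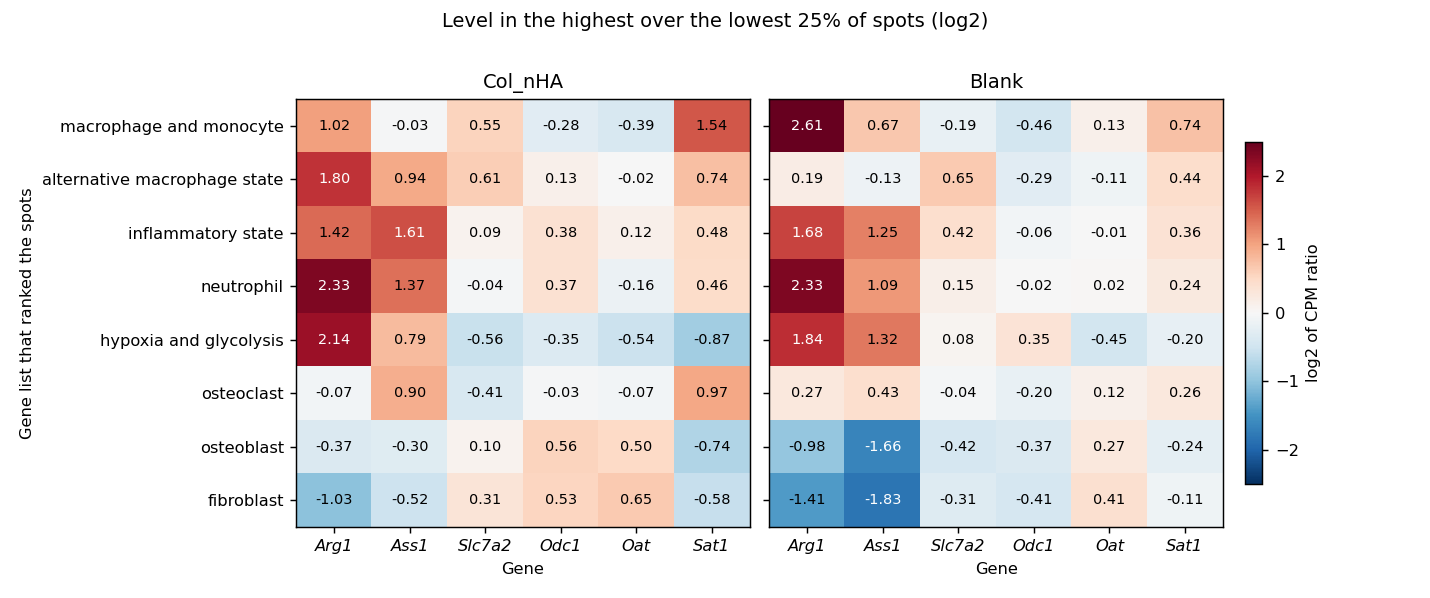
Log2 of the CPM of each gene in the 25% of spots with the highest share of a gene list over that in the 25% with the lowest, for 8 lists (rows) and 6 genes with 10 CPM or more (columns), in Col_nHA (left) and Blank (right), red above 0 and blue below. Arg1 is red in both sections for the neutrophil list, the hypoxia and glycolysis list and the inflammatory state list. It is blue for the fibroblast list, at quotients of 0.491 in Col_nHA and 0.376 in Blank.

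Over the 19 pools, the levels of the members, as log2(CPM + 1), went together to different degrees. The pools share 2 libraries and were built from the same counts, so the Pearson r is a description. It was 0.79 between Arg1 and Ass1, 0.63 between Arg1 and Odc1, 0.66 between Ass1 and Odc1, and 0.65 between Ass1 and Sat1. Between Arg1 and Oat it was 0.03, and between Arg1 and Slc7a2 it was -0.25. Slc7a2 and Oat reached at most 0.30 with any other of these 6 members, between Slc7a2 and Sat1.

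Among all other genes with 10 CPM or more, the 3 most like Arg1 over the pools were Mif, for macrophage migration inhibitory factor, at r = 0.89, Gmnn, for the replication inhibitor geminin, at 0.89, and AA467197 at 0.88. Those most like Ass1 were the cytokine genes Il1b at 0.94 and Cxcl5 at 0.91, and AA467197 at 0.89. Sat1 was most like Fcgr3, for an Fc receptor of phagocytes, Adcy7 and Snx5, each at 0.97. Odc1 was most like Uba1, for the ubiquitin-activating enzyme, at 0.93, Dut, for a nucleotide hydrolase, at 0.91, and Nxn at 0.90. Slc7a2 was most like the chemokine gene Cxcl12 at 0.86, Flt3l at 0.85 and Plekha4 at 0.85. Oat was most like Tjp1 at 0.85, Socs2 at 0.85 and Jam3 at 0.84. The members' nearest genes thus overlapped only between Arg1 and Ass1.

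Over the 2471 single spots of Col_nHA, the 10 genes with 50 CPM or more most like Arg1 were Srgn, Pf4, Ccl6, Timp1, Ccl9, Tgfbi, Actb, Anxa2, Loxl2 and Cd44. Their r ran from 0.45 for Srgn, for the granule proteoglycan serglycin, to 0.36 for the hyaluronan receptor gene Cd44. Pf4, Ccl6 and Ccl9 are chemokine genes of myeloid cells. Of the 3 genes nearest to Arg1 over the pools, Gmnn and AA467197 lay below 50 CPM in Col_nHA, at 22.4 and 34.1 CPM. They could therefore not enter the list over spots. Mif, at 384 CPM in Col_nHA, could enter and was not among the 10.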

How the data were processed

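The deposited values are unnormalized UMI counts for each gene and barcode, made by the authors with Space Ranger on mm10, per the submitters' processing notes. No Space Ranger version was found in the labels; per the file headers, Cell Ranger 4 wrote the matrices. Per the labels' description these are fresh-frozen spatial sections, although their extraction protocol speaks of droplet single-cell libraries. All 4992 barcodes were deposited, without a tissue filter.

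UMI counts were summed over spots and scaled to CPM. Ratios have conditional binomial, levels Poisson and shares Clopper-Pearson intervals. Regions came from counts scaled to 10000 a spot and log-transformed, 2000 variable genes, 30 principal components, 15 neighbours and Leiden, without batch integration; no doublet caller was run. Named genes were the members, the 2 most abundant and any 1.5-fold gene of each pathway list, the nearest genes by Pearson r, and the 3 leading genes of a region. The members and lists were chosen with earlier results of these data known. Gene positions are those of RefSeq on GRCm38.p6. Calculations were tested on simulated data. The software was Python 3.11.15, scipy 1.17.1, scanpy 1.11.5, igraph 0.11.9 and R 4.3.3 with edgeR 4.0.16, for TMM factors alone.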

Additional observations from a re-analysis of the deposited data

Results flagged for a closer look

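Ratios within regions, Col_nHA over Blank, went in opposite directions for 2 genes. Ass1 had a ratio of 3.81 (1.03 to 21.0) in region 12, led by Bglap, and 0.315 (0.232 to 0.430) in region 6, led by Npy. Sat1 had ratios of 1.37 (1.246 to 1.497) in region 2 and 1.56 (1.38 to 1.78) in region 6, and 0.767 (0.620 to 0.945) in region 13, led by Scara5. The differences between regions were not tested.

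Barcodes below the UMI threshold, which were not kept as spots, also held member transcripts at unequal levels. Arg1 had 676 UMIs in Col_nHA and 58 in Blank there, a ratio of 9.83 (7.51 to 13.1). Ass1 had a ratio of 1.93 (1.28 to 2.96), Odc1 of 1.31 (1.15 to 1.51) and Sat1 of 1.29 (1.17 to 1.42).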

How the results depend on the processing

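Over 10 other settings of threshold, scaling, pooling and tissue, the ratio kept its side of 1 for every member except Oat. It ran from 5.36 to 10.5 for Arg1, 1.71 to 3.50 for Nos2, 1.28 to 1.87 for Ass1, 0.717 to 0.852 for Slc7a2, 1.12 to 1.32 for Odc1, 1.19 to 1.59 for Sat1 and 0.706 to 0.964 for Arg2. Oat stood at 0.845 in the 25% of spots with the highest macrophage list share; the cause was not tested. The Arg1 ratio was 5.36 in those spots and 10.5 when CPM was averaged over spots, where Nos2 was 3.50. Members at least 2-fold higher numbered 1 in those spots and 1 with 10 CPM required, since Nos2 lies below that minimum. Spots with an Arg1 UMI made up 57.2% of Col_nHA and 13.7% of Blank without thinning, and 6.68% of Col_nHA and 0.534% of Blank at 500 UMIs. The highest Arg1 level of a region in Col_nHA was 424 CPM at resolution 1.0, in a region led by Saa3, Mt2 and Prg4, which also had the highest Nos2 level, 19.8 CPM. No paired analysis was possible because each group had 1 library. Nos2 and Arg2 rested on 52 to 155 UMIs a section, which limits their values by region.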
